A study of Mus musculus with 12 samples.

Results

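The genes described here are those of insulin-like growth factor 1 (IGF1) signalling that were named for this account: the ligand Igf1, the receptors Igf1r and Igf2r, and the binding proteins Igfbp2, Igfbp3, Igfbp4, Igfbp5, Igfbp6 and Igfbp7. They were found by symbol among the Ensembl gene IDs of the deposited count files, and make up 9 of 57010 IDs. All 9 passed the filter on low counts, with 978 to 42791 counts per library.

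IGF1 is a secreted growth factor that binds the tyrosine kinase receptor IGF1R. The receptor acts through insulin receptor substrates on the PI3K-AKT-mTOR and RAS-ERK cascades, and in cartilage this is a main drive for chondrocyte growth and for synthesis of collagen and aggrecan. IGF2R, the cation-independent mannose 6-phosphate receptor, takes up IGF2 for degradation and sorts lysosomal enzymes. The IGF-binding proteins hold IGFs in the extracellular space and can block or prolong their action, and proteases that cut them set IGFs free. IGFBP7 is the divergent member, with low affinity for IGFs.

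Transcripts were counted in primary chondrocytes of the mouse, the cells that make cartilage matrix, with 4 libraries in each of 3 groups and 12 in all. One group is labelled Control, and what these cells received is not stated further. The other groups were transfected with a plasmid labelled WT, read here as wild-type SIRT5, or with a plasmid for the mutant SIRT5F101L. SIRT5 is a mitochondrial enzyme that removes acyl groups such as succinyl and malonyl from lysines. All 12 libraries carry the genotype label Wild type, and age, sex, the promoter of the plasmids and the time after transfection are not labelled. The labels do not tie the libraries to separate cultures or animals, so p-values measure only the spread between these libraries, which may be technical. Replicate numbers were given here in order of accession, only as names, and were not used to pair libraries.

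Libraries held 15095357 to 24242139 counts. Levels are given as CPM, counts relative to a TMM-scaled library total, and a gene was called where the adjusted p of edgeR's quasi-likelihood test (Benjamini-Hochberg, over 14253 tested genes) was under 0.05. Counts of Sirt5 itself were low, with 9 to 16 per Control library, 1 to 9 per WT library and 9 to 19 per SIRT5F101L library, and edgeR gave adjusted p = 0.143 for WT against Control and 0.954 for SIRT5F101L against Control. The labels are therefore not checked by a rise of the plasmid's gene. Whether transcripts from the plasmids would be counted as mouse Sirt5 was not tested, so these counts do not show that the plasmids were silent. SIRT5F101L replicate 1 stood apart from its group: on the second principal component it lay at 20.3, beside WT replicates 2 to 4 at 12.5 to 20.1, while WT replicate 1 lay at -1.07 and the other SIRT5F101L libraries at -23.5 to -17.0. Whether its label is right was not tested, and the SIRT5F101L means include it as labelled. Calls among the 9 genes that changed when it was left out are given both ways, while means, shares, ratios and counts per role are given only with it. All 13 chondrocyte markers were counted, and their summed level was 9329 to 11690 CPM in Control, 2852 to 2966 in WT and 2321 to 2566 in SIRT5F101L libraries. Of the 13, 11 were called lower in each plasmid group, while 2 were called higher in WT and 1 in SIRT5F101L. The 7 fibroblast markers, collagen I genes among them, summed to 29620 to 35530, 9650 to 11060 and 9303 to 10690 CPM. Of the 6 tested, 5 were called lower and 1 higher in each plasmid group. The 9 macrophage and leukocyte markers summed to 185.6 to 218.2, 89.7 to 102.5 and 89.0 to 115.9 CPM, with Itgam at 3 counts or fewer in every library. Osteoblast markers summed to 18.0 to 24.8, 4.11 to 4.78 and 3.51 to 5.21 CPM, and the endothelial, adipocyte and muscle lists stayed at or under 6.55 CPM in every library, with Lep, Myog and Ckm at 3 counts or fewer. The chondrocyte, fibroblast, osteoblast, macrophage, adipocyte and muscle sums were higher in Control and differed between Control and the plasmid groups without overlap, as most of the genes below did, and their part in the results was not tested. The endothelial sums overlapped between the groups, at 3.17 to 4.81 CPM over all 12 libraries. In such bulk libraries, fewer cells of a type and less RNA per cell cannot be told apart.

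The first question was how the ligand, receptors and binding proteins differed between each plasmid group and Control. All 9 genes changed in both comparisons, in the same direction in each. Igf1, Igfbp2, Igfbp3, Igfbp4 and Igfbp6 were lower in both plasmid groups, and Igf1r, Igf2r, Igfbp5 and Igfbp7 were higher. Without SIRT5F101L replicate 1, the 9 genes were all still called against Control. The comparisons share the 4 Control libraries, so their agreement is not independent. A large part of the transcriptome differed as well: edgeR called 56.8% of tested genes in WT against Control (28.7% higher, 28.1% lower) and 60.7% in SIRT5F101L against Control (30% higher, 30.7% lower). The groups did not overlap for 9 of the 9 genes in WT against Control, where 53.5% of tested genes did not overlap. They did not overlap for 8 of 9 in SIRT5F101L against Control, against 51.3% of tested genes. The median log2 fold change over the 9 was -0.25 in WT and -0.22 in SIRT5F101L, beside -0.01 and -0.02 over all tested genes. Without SIRT5F101L replicate 1 the median over the 9 was -0.28 in SIRT5F101L, beside -0.02 over all tested genes.

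**Figure D1:**
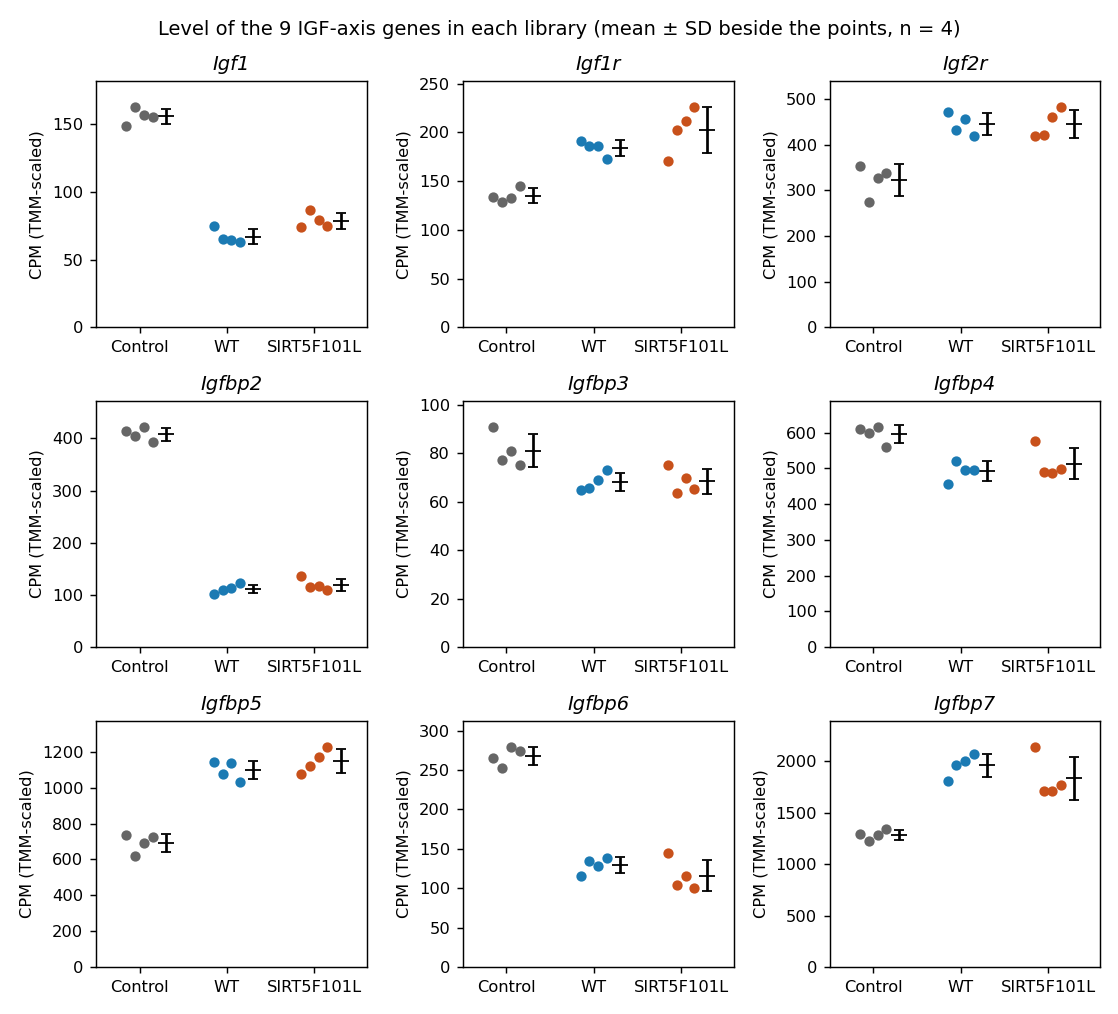
Level of each of the 9 genes in each library, in TMM-scaled CPM on axes that start at 0. Points are libraries, and the black marks beside them give the mean and SD of 4 libraries. Igf1, Igfbp2 and Igfbp6 drop between Control and both plasmid groups without overlap, Igfbp5 and Igfbp7 rise, and SIRT5F101L replicate 1 is the highest point of its group for Igfbp4 (577 CPM) and Igfbp7 (2140 CPM).

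Igf1 (ENSMUSG00000020053, chromosome 10), the ligand, was counted at 149, 162, 157 and 156 CPM in Control replicates 1 to 4. It was at 75.1, 65.5, 64.9 and 62.8 CPM in WT, and at 74.1, 86.7, 79.4 and 74.9 CPM in SIRT5F101L. All 8 plasmid libraries were far below the lowest Control library, and the plasmid groups overlapped each other. Igf1 fell by 1.22 ± 0.07 (SE) on the log2 scale in WT (edgeR adjusted p = 4.89e-12) and by 0.99 ± 0.07 in SIRT5F101L (edgeR adjusted p = 1.16e-10). The other IGF ligand, Igf2, was listed at 0 in all 12 libraries. In the GENCODE M21 annotation 64.5% of the Igf2 exon sequence is shared with Gm49394 and Igf2os, and whether this bears on the listed 0 was not tested.

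Igf1r (ENSMUSG00000005533, chromosome 7), the signalling receptor, went the other way from its ligand. Its level was 134, 128, 133 and 146 CPM in Control, 191, 186, 186 and 173 CPM in WT, and 170, 203, 212 and 226 CPM in SIRT5F101L. Every plasmid library was above every Control library, with SIRT5F101L replicate 1 the lowest of the 8. Igf1r rose by 0.44 ± 0.07 (SE) on the log2 scale in WT (edgeR adjusted p = 3.31e-05) and by 0.59 ± 0.07 in SIRT5F101L (edgeR adjusted p = 9.69e-07). Igf2r (ENSMUSG00000023830, chromosome 17), which clears IGF2, stood at 353, 274, 327 and 339 CPM in Control, 473, 432, 456 and 420 CPM in WT, and 420, 422, 461 and 482 CPM in SIRT5F101L. Its Control libraries were more spread than those of Igf1, yet all lay below the plasmid libraries. The rise of Igf2r was 0.46 ± 0.07 in WT (edgeR adjusted p = 2.26e-05) and 0.47 ± 0.07 in SIRT5F101L (edgeR adjusted p = 1.92e-05). Igf1r and Igf2r have the longest transcripts of the 9, at 11409 and 8887 bases. With each library's trend on transcript length taken out as an offset, the rise of Igf1r was 0.27 in both plasmid groups, and that of Igf2r was 0.31 in WT and 0.20 in SIRT5F101L, all still called.

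**Figure D2:**
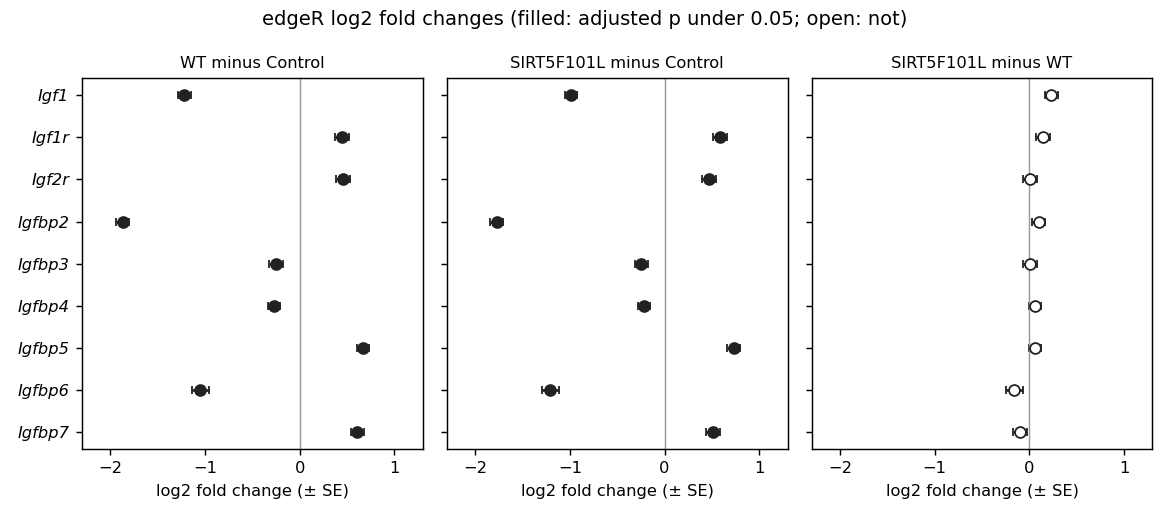
Log2 fold changes of the 9 genes from the edgeR fit of all 12 libraries, with bars for the SE. Filled points have an adjusted p under 0.05. All points are filled and lie well off 0 in both comparisons with Control, from -1.87 for Igfbp2 to 0.73 for Igfbp5, while all are open in SIRT5F101L minus WT, where the highest is Igf1 at 0.23.

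Among the binding proteins, Igfbp2 (ENSMUSG00000039323, chromosome 1) fell the most. It stood at 414, 405, 421 and 393 CPM in Control, but at 102, 110, 112 and 122 CPM in WT and 137, 115, 118 and 109 CPM in SIRT5F101L. The plasmid libraries of both groups lay together, far under all Control libraries. The fall was 3.66-fold in WT (log2 fold change -1.87 ± 0.07 SE, edgeR adjusted p = 1e-14) and 3.42-fold in SIRT5F101L (-1.77 ± 0.07, edgeR adjusted p = 2.16e-14). Igfbp6 (ENSMUSG00000023046, chromosome 15), which prefers IGF2 over IGF1, was at 266, 252, 279 and 274 CPM in Control, 116, 135, 129 and 139 CPM in WT, and 144, 104, 115 and 100 CPM in SIRT5F101L. It too was lower in all 8 plasmid libraries, and its highest plasmid value was that of SIRT5F101L replicate 1. Igfbp6 fell by 1.05 ± 0.09 (SE) on the log2 scale in WT (edgeR adjusted p = 4.02e-09) and by 1.21 ± 0.09 in SIRT5F101L (edgeR adjusted p = 4.53e-10).

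Igfbp3 (ENSMUSG00000020427, chromosome 11), the main carrier of IGFs in serum, and Igfbp4 (ENSMUSG00000017493, chromosome 11), an inhibitor of IGF action that is cut by the protease PAPP-A, moved much less. Igfbp3 was at 90.8, 77.4, 81.0 and 75.3 CPM in Control, 64.8, 65.7, 69.1 and 73.1 CPM in WT, and 75.2, 63.5, 70.0 and 65.2 CPM in SIRT5F101L. The groups did not overlap, but the lowest Control library and the highest SIRT5F101L library were nearly level. Igfbp3 fell by 0.25 ± 0.07 (SE) on the log2 scale in WT (edgeR adjusted p = 0.00615) and by 0.24 ± 0.07 in SIRT5F101L (edgeR adjusted p = 0.00657). Igfbp4 was at 610, 600, 615 and 558 CPM in Control, 457, 522, 496 and 496 CPM in WT, and 577, 489, 486 and 499 CPM in SIRT5F101L. SIRT5F101L replicate 1 was above Control replicate 4, the only overlap with Control among the 9 genes, and without that library the SIRT5F101L group also lay below Control. Igfbp4 fell by 0.27 ± 0.06 in WT (edgeR adjusted p = 0.00123) and by 0.22 ± 0.06 in SIRT5F101L (edgeR adjusted p = 0.00702), and with scaling by total counts alone the latter was a log2 fold change of -0.13 that was not called (edgeR adjusted p = 0.0593).

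Igfbp5 (ENSMUSG00000026185, chromosome 1), which also binds extracellular matrix, and Igfbp7 (ENSMUSG00000036256, chromosome 5) rose. Igfbp5 was at 733, 621, 692 and 725 CPM in Control, 1143, 1079, 1140 and 1034 CPM in WT, and 1075, 1120, 1170 and 1227 CPM in SIRT5F101L. The lowest plasmid library, WT replicate 4, was well above the highest Control library. The rise of Igfbp5 was 0.67 ± 0.07 (SE) on the log2 scale in WT (edgeR adjusted p = 3.06e-08) and 0.73 ± 0.07 in SIRT5F101L (edgeR adjusted p = 7.76e-09). Igfbp7 was at 1298, 1221, 1287 and 1338 CPM in Control, 1807, 1961, 2002 and 2076 CPM in WT, and 2140, 1710, 1715 and 1774 CPM in SIRT5F101L. SIRT5F101L replicate 1 was the highest of all 12 libraries, and its 3 group mates were the lowest of the 8 plasmid libraries, still above Control. Igfbp7 rose by 0.61 ± 0.07 in WT (edgeR adjusted p = 4.84e-07) and by 0.51 ± 0.07 in SIRT5F101L (edgeR adjusted p = 4.33e-06). In GENCODE M21, 7.03% of the Igfbp7 exon sequence is shared with Polr2b, and for the other 8 genes no exon sequence is shared with another gene.

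Levels were compared between genes as CPM per kilobase of the longest transcript in GENCODE M21. In Control, Igfbp7 led at 1072 ± 40.6 CPM per kilobase (SD, n = 4), followed by Igfbp2 at 312, Igfbp6 at 241, Igfbp4 at 156 and Igfbp5 at 115. Igf2r at 36.4 and Igfbp3 at 33.5 overlapped between libraries, and Igf1 at 22.1 and Igf1r at 11.9 came last, each apart from its neighbour. In WT the order of levels was Igfbp7 at 1634 ± 94.4, Igfbp5 at 183, Igfbp4 at 129, Igfbp6 at 116, Igfbp2 at 85.4, Igf2r at 50.1, Igfbp3 at 28.2, Igf1r at 16.1 and Igf1 at 9.51 CPM per kilobase, with overlap only between Igfbp4 and Igfbp6. By the longest transcript, the SIRT5F101L order was that of WT, with Igfbp7 at 1529 ± 171 and Igf1 at 11.2 CPM per kilobase, and there Igfbp4, Igfbp6 and Igfbp2 overlapped in a chain. Igfbp2 thus went from the second place to the fifth, Igfbp5 from the fifth to the second, and Igf1 and Igf1r changed places. With the union of a gene's exons as its length, Igfbp6 at 240.7 stood above Igfbp2 at 221 CPM per kilobase in Control, so that Igfbp2 went from the third place to the fifth, and Igfbp6 at 116.4 stood above Igfbp4 at 111.5 in WT, while in SIRT5F101L Igfbp4 at 116.1 stood above Igfbp6 at 104.2.

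The 6 binding proteins together summed to 1929 ± 55.6 CPM per kilobase in Control, 2176 ± 108 in WT and 2078 ± 202 in SIRT5F101L (SD, n = 4). Igfbp7 made up 55.6% ± 0.93 of it in Control, 75.1% ± 0.63 in WT and 73.5% ± 1.08 in SIRT5F101L. The share of Igfbp2 was 16.2% ± 0.62 in Control, 3.92% ± 0.12 in WT and 4.4% ± 0.19 in SIRT5F101L. The ranges of these shares in Control were far from those in either plasmid group, since Igfbp7 reached at most 56.9% in a Control library and at least 72.4% in a plasmid library. Igfbp6 went from 12.5% to 5.35% and 5.0%, Igfbp4 from 8.07% to 5.91% and 6.45%, and Igfbp5 from 5.97% to 8.44% and 9.28%. With the union of exons as length, Igfbp2 made up 12.3%, 2.85% and 3.21% in Control, WT and SIRT5F101L, Igfbp6 13.4% in Control, and Igfbp7 59.0%, 76.7% and 75.2%. With the longest transcript as length, Igfbp3 was the smallest part throughout, between 1.25% and 1.92% in any library.

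**Figure D3:**
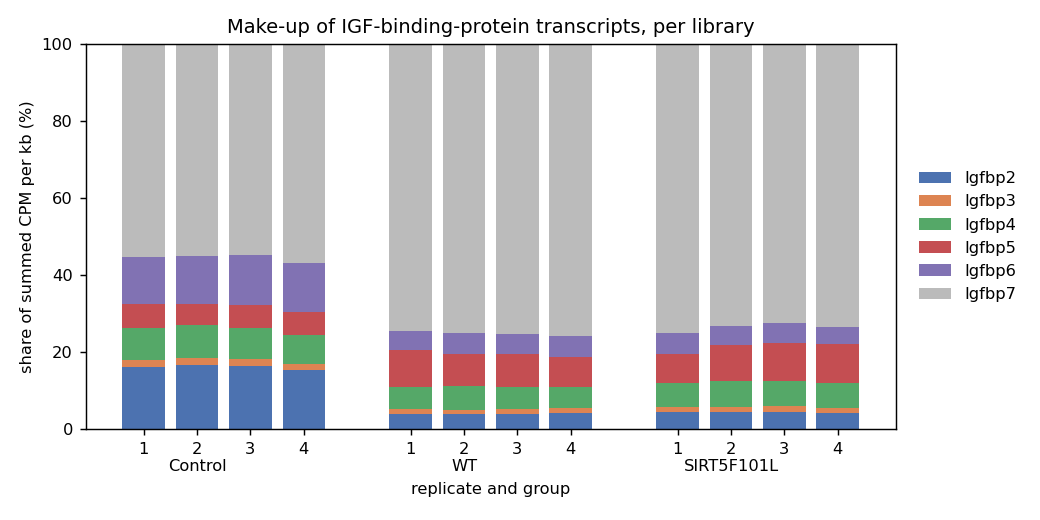
Share of each IGF-binding protein in the summed CPM per kilobase of the 6, for each library, grouped by the plasmid label. The Igfbp2 band shrinks from 16.2% on average in Control to 3.92% in WT and 4.4% in SIRT5F101L, and the Igfbp7 band widens from 55.6% to 75.1% and 73.5%.

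Igfbp2 and Igfbp5 are neighbours on chromosome 1 with 0 genes between them in the RefSeq GRCm38.p6 gene table, and they moved in opposite directions. The ratio of Igfbp5 to Igfbp2, on the scale of CPM per kilobase, was 0.37 ± 0.03 (SD, n = 4) in Control, 2.16 ± 0.24 in WT and 2.11 ± 0.30 in SIRT5F101L. Ratios ranged from 0.334 to 0.402 over the Control libraries and from 1.71 to 2.45 over the plasmid libraries. The 250 bases before the most upstream RefSeq start of these neighbours, and of the other binding proteins with a marked fall and rise (Igfbp6 and Igfbp7), are shown to compare genes that moved apart. Igfbp2 lies at chr1:72824230-72824479 (plus strand), Igfbp5 at chr1:72874866-72875115 (minus), Igfbp6 at chr15:102143936-102144185 (plus) and Igfbp7 at chr5:77408046-77408295 (minus), all in RefSeq GRCm38.p6, which differs from the GRCm39 build of the counts. Sequences run 5' to 3' toward the gene, and capitals mark matches on either strand to the motifs named after them.
Igfbp2: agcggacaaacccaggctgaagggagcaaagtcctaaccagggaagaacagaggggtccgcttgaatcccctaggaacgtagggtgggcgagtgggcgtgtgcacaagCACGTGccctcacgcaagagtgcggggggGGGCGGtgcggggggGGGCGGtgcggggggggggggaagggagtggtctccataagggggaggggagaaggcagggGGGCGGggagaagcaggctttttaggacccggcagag
Igfbp5: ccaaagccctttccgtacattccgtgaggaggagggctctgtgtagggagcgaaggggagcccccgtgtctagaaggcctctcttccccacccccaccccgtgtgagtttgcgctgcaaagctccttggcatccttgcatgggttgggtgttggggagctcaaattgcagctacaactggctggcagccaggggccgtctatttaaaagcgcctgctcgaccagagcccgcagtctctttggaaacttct
Igfbp6: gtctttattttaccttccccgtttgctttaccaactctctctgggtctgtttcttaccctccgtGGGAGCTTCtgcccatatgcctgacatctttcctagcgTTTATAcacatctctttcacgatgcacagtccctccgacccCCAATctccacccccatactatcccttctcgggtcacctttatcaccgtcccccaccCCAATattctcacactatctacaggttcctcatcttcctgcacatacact
Igfbp7: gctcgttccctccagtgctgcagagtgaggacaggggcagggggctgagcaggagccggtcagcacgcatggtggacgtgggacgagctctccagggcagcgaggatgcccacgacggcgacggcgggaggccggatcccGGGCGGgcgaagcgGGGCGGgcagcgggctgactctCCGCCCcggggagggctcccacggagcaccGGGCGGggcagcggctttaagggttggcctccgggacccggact
The capitals in Igfbp2 and Igfbp7 are GC boxes (GGGCGG), together with an E-box (CACGTG) in Igfbp2. In Igfbp6 they are matches to the CCAAT box, to the NF-kB motif (GGGANNTTC) and, on the opposite strand, to the TATA box (TATAAA). Igfbp5 holds no match.

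All 9 genes were matched in the RefSeq promoter table, and 8 motifs were searched on both strands. Each gene was taken only at its most upstream RefSeq start, which may not be the start in use in these cells. A GC box lay before 4 of the 9 genes (Igf1r, Igf2r, Igfbp2 and Igfbp7), beside 33% of all 27025 windows of the same length. A CCAAT box lay before 2 (Igf1 and Igfbp6), beside 34.5%, and a TATA box before 2 (Igfbp4 and Igfbp6), beside 13% of windows. E-boxes lay before Igf2r and Igfbp2 (6.04% of windows), an AP-1 motif (TGANTCA) before Igf1 (6.85%), and the NF-kB motif before Igfbp6 (3.19%). STAT (TTCNNNGAA, 7.14% of windows) and FOXO motifs (GTAAACA, 3.06%) matched none of the 9. GC boxes and E-boxes thus occur both before genes that rose and before Igfbp2, which fell. The windows of Igfbp6 and Igf1 were the least GC-rich, at 49.6% and 52.8% GC beside a median of 52% over all windows, and that of Igf1r was the most, at 77.6%. A match is a description of the letters and not evidence of a bound site.

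The next question was how the mutant plasmid group differed from the WT plasmid group. With all 12 libraries none of the 9 genes was called by edgeR or by DESeq2, and 1 of 9, Igf1, had an unadjusted p under 0.05 in the edgeR test. Over all tested genes edgeR called 0.0421% and DESeq2 0.309%, and 11.9% had an unadjusted p under 0.05 in the edgeR test, so that 1 of 9 is near the background. The groups overlapped for all 9 genes, and did not overlap for 4.02% of tested genes. On the log2 scale Igf1 differed by 0.23 ± 0.07 (SE; edgeR adjusted p = 0.313), Igf1r by 0.14 ± 0.07 (0.444), Igfbp6 by -0.16 ± 0.09 (0.475), and Igfbp7 by -0.10 ± 0.07 (0.581). Igfbp2 differed by 0.10, Igfbp5 and Igfbp4 by 0.06, Igfbp3 by 0.01 and Igf2r by 0.00, each with an SE of 0.06 to 0.07. A p over the threshold does not show that the groups were alike.

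Leaving out SIRT5F101L replicate 1 changed this picture. Without it edgeR called 15.2% of the genes tested, and 4 of the 9 genes. Igf1 was then higher in SIRT5F101L than in WT by 0.26 ± 0.07 (SE) on the log2 scale (edgeR adjusted p = 0.0075), and Igf1r by 0.22 ± 0.06 (edgeR adjusted p = 0.0107). Igfbp6 was lower, at -0.28 ± 0.06 on that scale (edgeR adjusted p = 0.00359), as was Igfbp7, at -0.18 ± 0.06 (edgeR adjusted p = 0.0412). The pair that was higher has transcripts of 7052 (Igf1) and 11409 bases (Igf1r), and the pair that was lower has transcripts of 1112 (Igfbp6) and 1200 bases (Igfbp7). The other genes did not all follow length, since Igf2r (8887 bases) and Igfbp2 (1307 bases) were both at 0.03. Libraries also differed in how their counts followed transcript length: per doubling of length, log2 CPM departed from the mean of the 12 libraries by 0.081 to 0.103 in SIRT5F101L replicates 2 to 4, by -0.059 in replicate 1, by -0.036 to 0.052 in WT and by -0.066 to -0.044 in Control, a range that holds replicate 1 of SIRT5F101L. With that length trend taken out as an offset and replicate 1 still left out, an alternative chosen after the data were seen, none of the 9 was called, beside 8.41% of all genes tested. Igf1 was then at 0.12 (edgeR adjusted p = 0.267), Igf1r at -0.01 (0.936), Igfbp6 at -0.16 (0.0873) and Igfbp7 at -0.06 (0.6), with 3 of the 9 under an unadjusted p of 0.05 (Igfbp6, Igf2r and Igfbp2), beside 22% of all genes tested. Leaving out any other library gave no call among the 9 genes.

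**Figure D4:**
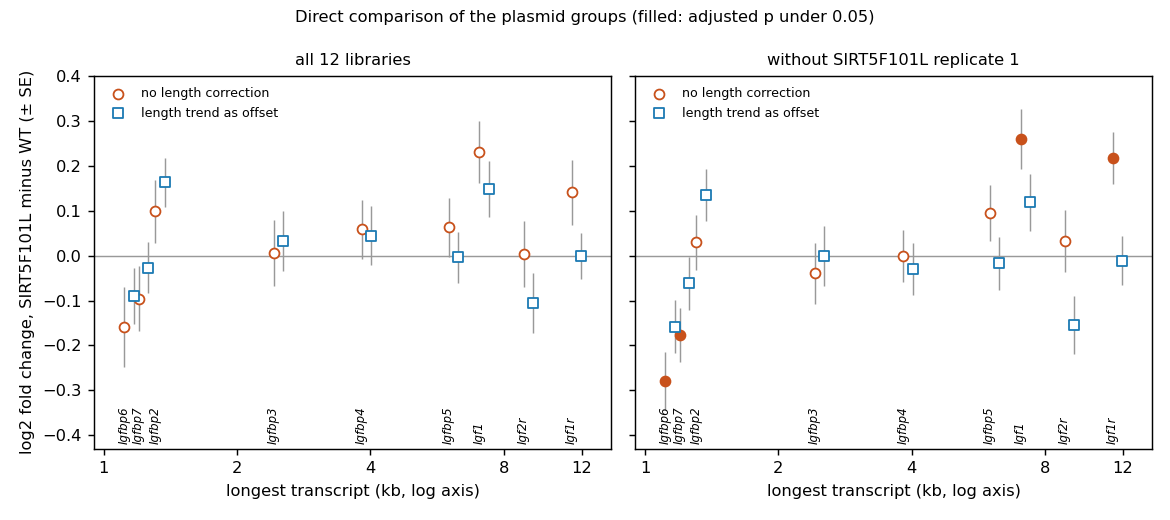
Log2 fold change between SIRT5F101L and WT (bars: SE) against the length of the longest transcript on a log axis, with all 12 libraries on the left and without SIRT5F101L replicate 1 on the right. Circles have no length correction and squares, drawn slightly to the right, have the length trend as an offset, and filled symbols have an adjusted p under 0.05. The 4 filled circles on the right, Igf1 (0.26), Igf1r (0.22), Igfbp6 (-0.28) and Igfbp7 (-0.18), have open squares closer to 0 beside them.

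To place the 9 genes in their pathway, 85 further genes were listed by role, of which 73 were tested. Of these, 30 were higher and 20 lower in WT, and 32 were higher and 21 lower in SIRT5F101L, beside the 28.7% and 28.1%, and 30% and 30.7%, of all tested genes given above. Their median log2 fold change was 0.11 in WT and 0.15 in SIRT5F101L. The calls therefore went in both directions, and the larger number of higher calls turned with the length offset in both groups and with upper-quartile scaling in WT. With the length offset, 21 were higher and 24 lower in WT, and 22 higher and 23 lower in SIRT5F101L. Upper-quartile scaling gave 21 higher and 24 lower in WT and 27 and 22 in SIRT5F101L, and total-count scaling 35 higher and 18 lower in WT and 41 and 17 in SIRT5F101L. Of all genes called, the share that was higher was 50.6% in WT and 49.4% in SIRT5F101L, and 47% and 45.7% with the length offset, 44.8% and 45% with upper-quartile scaling, and 59.2% and 57.9% with total-count scaling. Without SIRT5F101L replicate 1, 33 of the list were higher and 22 lower in WT, and 38 and 23 in SIRT5F101L. The share of all genes called that was higher was then 50.2% in WT and 49.1% in SIRT5F101L. Between SIRT5F101L and WT edgeR called none of the 73, DESeq2 called Mmp3, and without SIRT5F101L replicate 1 edgeR called 19 higher and 5 lower, beside 6.66% and 8.57% of all genes tested. With the length trend also taken out, an alternative chosen after the data were seen, 1 was called higher and 3 lower, beside 8.41% of all genes tested called in either direction. The 7 genes listed at 0 in every library were Igf2, Insrr, Htra1, Mmp19, Irs4, Foxo4 and Rps6ka3, and 5 more had too few counts to test (Igfbp1, Igfbpl1, Adam28, Mmp7 and Mmp9). No X-linked ID had a count in any library, so that the listed 0 of X-linked genes such as Irs4, Foxo4 and Rps6ka3 says nothing of their expression. Igf2, Insrr, Htra1 and Mmp19 are on autosomes, and whether their listed 0 reflects absent expression was not tested.

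Around the ligand and its receptors, Igfals, the acid-labile subunit that joins IGF and IGFBP3 in serum, was near the limit of detection and fell from 2.81 ± 0.86 CPM (SD, n = 4) in Control to 0.61 ± 0.43 in WT and 0.57 ± 0.28 in SIRT5F101L (log2 fold changes -2.22 and -2.32, edgeR adjusted p = 0.000132 and 7.9e-05). Insr, the insulin receptor and relative of Igf1r, was not called, at 34.4 ± 3.1, 37.1 ± 3.4 and 39.2 ± 4.5 CPM, but was called higher in SIRT5F101L without replicate 1 of that group (edgeR adjusted p = 0.00699) or with total-count scaling (edgeR adjusted p = 0.0169). The ratio of Igf1r to Insr in CPM per kilobase was 3.24 ± 0.25 in Control, 4.08 ± 0.21 in WT and 4.25 ± 0.41 in SIRT5F101L. Of the 5 tested receptors and uptake genes, 3 were higher and 1 lower in WT, and 3 were higher and 0 lower in SIRT5F101L, where 28.7% and 28.1%, and 30% and 30.7%, of all tested genes were. The lower one was the endocytic receptor Lrp2, named after its values were seen, which stayed under 1 CPM, with at most 18 counts, in every library (log2 fold change -1.88 in WT, edgeR adjusted p = 0.00373, and -0.49 in SIRT5F101L, edgeR adjusted p = 0.34). Between SIRT5F101L and WT, Lrp2 was not called (edgeR adjusted p = 0.365). Itgb3, the integrin subunit that pairs with Itgav in a receptor known to modulate IGF1R signalling, rose from 8.37 ± 2.1 CPM to 150 ± 8.5 and 153 ± 4.8 CPM (log2 fold changes 4.17 and 4.20, edgeR adjusted p = 3.95e-17 and 2.99e-17). Itgav rose by 1.10 and 1.23 (edgeR adjusted p = 2.68e-11 and 4.5e-12), and Lrp1, a scavenger receptor that binds IGFBP3 and is named here after its values were seen, by 0.66 and 0.80 (edgeR adjusted p = 2.01e-05 and 1.56e-06).

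The list of proteases that cut binding proteins, and of their inhibitors, held the gene with the highest fold change of the pathway list, Mmp3. All 7 tested members were called in both comparisons, 4 higher and 3 lower, where 56.8% of all tested genes were called in WT and 60.7% in SIRT5F101L. Mmp3, stromelysin 1, which degrades matrix and IGFBP3, was at 16.8, 14.7, 15.5 and 18.3 CPM in Control, 1420, 1469, 1494 and 1747 CPM in WT, and 2107, 1887, 1790 and 1738 CPM in SIRT5F101L. No plasmid library came near the Control libraries. Its log2 fold change was 6.55 ± 0.10 (SE) in WT and 6.85 ± 0.10 in SIRT5F101L (edgeR adjusted p = 3.29e-20 and 1.9e-20). The stanniocalcins, which inhibit PAPP-A, rose as well: Stc1 went from 16.9 ± 2.4 CPM (SD, n = 4) to 249 ± 16 and 251 ± 26 CPM (edgeR adjusted p = 1.84e-17 and 1.79e-17), and Stc2 from 11.3 ± 2.2 to 21.7 ± 1.4 and 21.9 ± 2.5 CPM (edgeR adjusted p = 1.03e-06 and 7.66e-07).

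Pappa, the gene of PAPP-A, which cuts IGFBP4, was at 64.4, 61.0, 62.4 and 67.6 CPM in Control, 49.0, 38.1, 36.7 and 35.6 CPM in WT, and 33.4, 50.7, 52.8 and 50.2 CPM in SIRT5F101L. The plasmid libraries were all below Control, and SIRT5F101L replicate 1 lay under its group mates and under the WT libraries. Pappa fell by 0.68 ± 0.12 (SE) in WT and by 0.45 ± 0.12 in SIRT5F101L on the log2 scale (edgeR adjusted p = 5.82e-05 and 0.00256). The remaining members are named after their values were seen. Pappa2, whose product cuts IGFBP3 and IGFBP5, fell by 3.10 and 2.31 on the log2 scale (edgeR adjusted p = 1.34e-08 and 2.48e-07), and the serine protease Htra3 fell by 1.80 and 1.94 (edgeR adjusted p = 5.25e-13 and 1.71e-13). Adam12, a metalloprotease that cuts IGFBP3 and IGFBP5, rose by 1.20 and 1.29 (edgeR adjusted p = 6.5e-09 and 1.79e-09).

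**Figure D5:**
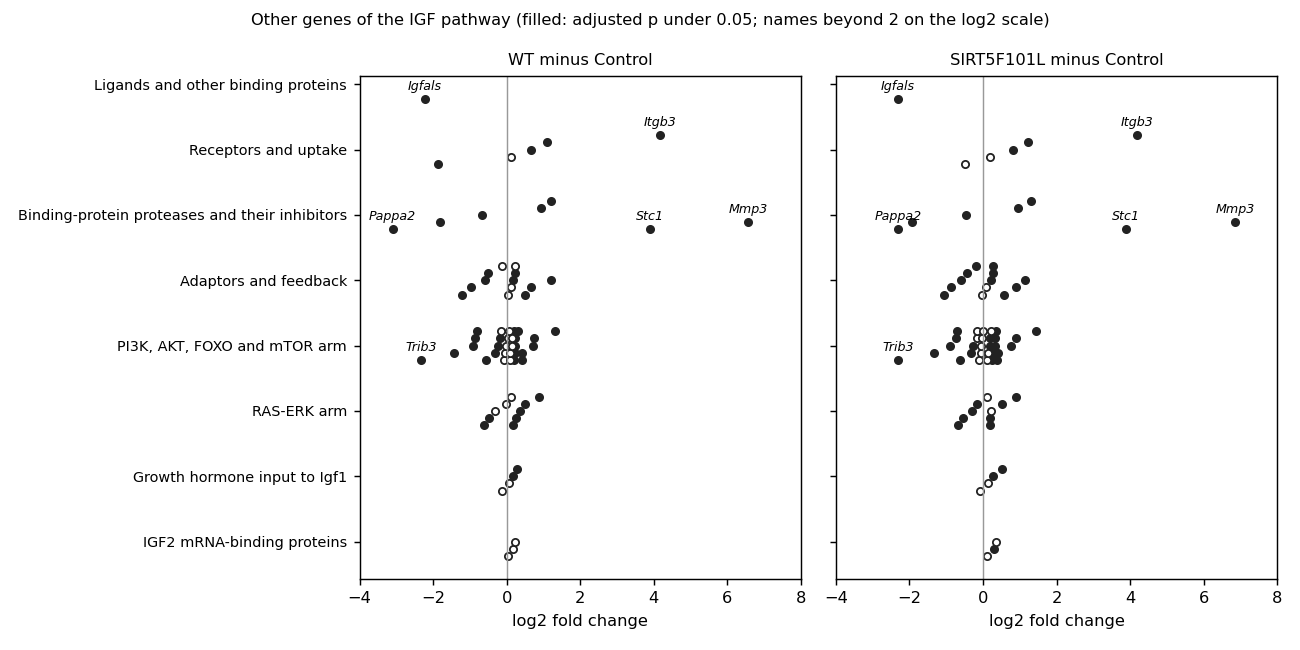
Log2 fold changes of the 73 tested genes of the pathway list by role, in WT minus Control and SIRT5F101L minus Control. Filled points have an adjusted p under 0.05, vertical position within a row only spreads the points, and names mark genes beyond 2 in either direction. The widest spread is among the proteases and their inhibitors, from Pappa2 (-3.10 and -2.31) to Mmp3 (6.55 and 6.85), while the signalling arms stay mostly within 1 of 0.

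Below the receptor, 5 of 13 tested adaptor and feedback genes were higher and 4 lower in WT, and 6 were higher and 5 lower in SIRT5F101L. The shares over all tested genes were 28.7% higher and 28.1% lower in WT, and 30% and 30.7% in SIRT5F101L. Irs1, the adaptor that docks on IGF1R, fell from 59.8 ± 5.1 CPM (SD, n = 4) to 39.4 ± 4.6 in WT and 44.0 ± 7.4 CPM in SIRT5F101L (edgeR adjusted p = 8.6e-05 and 0.00144). Its exons share 30.9% of their sequence with Gm9747. Gab1, another docking protein, fell by 1.21 and 1.05 on the log2 scale (edgeR adjusted p = 6.48e-09 and 4.52e-08). Grb10, an inhibitory adaptor of IGF1R named here after its values were seen, fell by 0.98 and 0.86 (edgeR adjusted p = 1.98e-11 and 1.34e-10). Socs3, a feedback inhibitor of cytokine receptors that also binds IGF1R, rose by 1.21 and 1.15 (edgeR adjusted p = 5.17e-11 and 1.06e-10). Irs2 was not called in WT (0.22, edgeR adjusted p = 0.093, or 0.0355 without SIRT5F101L replicate 1) and was called in SIRT5F101L (0.27, edgeR adjusted p = 0.0416), where leaving out Control replicate 1, 3 or 4, WT replicate 3 or SIRT5F101L replicate 2, 3 or 4 gave adjusted p of 0.0505 to 0.155. The Irs2 change in SIRT5F101L was 0.07 with the length offset (edgeR adjusted p = 0.537) and was not called with upper-quartile scaling (0.0897), while in WT it was called with total-count scaling (0.0338) and in the fit of the 8 libraries compared (0.0279). Socs2, which limits growth hormone signalling, was higher by 0.22 in both groups (edgeR adjusted p = 0.0215 and 0.0174). Its calls were lost without Control replicate 1 (0.0982 in WT and 0.084 in SIRT5F101L), without WT replicate 3 in WT (0.0721) and without SIRT5F101L replicate 4 in SIRT5F101L (0.0764). Both Socs2 calls were also lost with the length offset (0.0642 and 0.098) and with upper-quartile scaling (0.0756 and 0.0553).

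In the PI3K, AKT, FOXO and mTOR arm, 11 of 30 tested genes were higher and 9 lower in WT, and 12 were higher and 8 lower in SIRT5F101L. Over all tested genes 28.7% were higher and 28.1% lower in WT, and 30% and 30.7% in SIRT5F101L. Trib3, a pseudokinase that binds AKT, fell from 102 ± 5.1 CPM (SD, n = 4) to 20.4 ± 3.1 and 20.6 ± 2.5 CPM (edgeR adjusted p = 5.43e-14 and 5.46e-14). Pik3cb, a catalytic subunit of PI3K, rose by 1.32 and 1.44 on the log2 scale (edgeR adjusted p = 1.23e-10 and 2.64e-11). Inpp5d, a phosphatase of the PI3K product best known from blood cells, fell by 1.43 and 1.33 from 3.2 ± 0.47 CPM in Control (edgeR adjusted p = 0.000153 and 0.000264). The leukocyte marker sums given above were lower as well, as were those of most other lists, and a link to Inpp5d was not tested. Akt2, named after its values were seen, fell by 0.57 and 0.62 (edgeR adjusted p = 4.07e-08 and 8.93e-09). In the RAS-ERK arm, 5 of 10 were higher and 2 lower in WT, and 4 were higher and 4 lower in SIRT5F101L, beside the same shares of all genes. Mapk3, the kinase ERK1, fell by 0.62 and 0.67 (edgeR adjusted p = 4.84e-08 and 1.55e-08).

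Growth hormone is a known inducer of Igf1 through its receptor, JAK2 and STAT5. Of the 4 genes tested, Ghr and Jak2 were higher in both plasmid groups (28.7% of all tested genes in WT and 30% in SIRT5F101L), and Stat5a and Stat5b were not called. Ghr was at 90.2 ± 3.2 CPM (SD, n = 4) in Control, 102 ± 5.4 in WT and 110 ± 8.3 CPM in SIRT5F101L (edgeR adjusted p = 0.0197 and 0.000705), and its call in WT was lost without Control replicate 1 (0.0575) or WT replicate 1 (0.079), with the length offset (0.066) and with upper-quartile scaling (0.0885). Jak2 was at 44.0 ± 4.4, 53.7 ± 4.2 and 62.7 ± 5.2 CPM (edgeR adjusted p = 0.00564 and 2.2e-05). Among the 3 proteins that bind Igf2 mRNA, only Igf2bp3 was called, in SIRT5F101L (0.29, edgeR adjusted p = 0.0476), and leaving out Control replicate 1, 2 or 3, any WT library, or SIRT5F101L replicate 2, 3 or 4 gave an adjusted p of 0.0501 to 0.165. Its call was also lost with the length offset (0.118), with upper-quartile scaling (0.0954) and in the fit of the 8 libraries compared (0.0582).

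For each of the 9 genes, the 2 tested genes with the most similar log2 CPM profile over the 12 libraries were taken from 9751 genes, by Pearson r and with no test. All profiles share the step between Control and the plasmid groups, which dominates these values. Igf1 was most like Pcmtd2 (0.99) and the cadherin gene Cdh11 (0.99), and Igf1r was most like Dst (0.993) and Hip1 (0.993). Igf2r was most like Ltbp2 (0.986) and Glg1 (0.986). Igfbp2 was most like Ccn5 (0.997) and Gas1 (0.997), and Igfbp6 most like Cdkn2a (0.996) and Trnp1 (0.995). Igfbp5 was most like Ltbp1 (0.995) and Mtor (0.995), and Igfbp7 most like Pea15a (0.989) and Ftsj3 (0.988). The values were lower for the genes that moved little, Igfbp3 with Med22 (0.947) and Gosr2 (0.944), and Igfbp4 with Limd2 (0.96) and Copz1 (0.959).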

How the data were processed

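The deposited files hold whole-number counts of reads per Ensembl gene, 1 file per library. Per the labels' protocols, poly(A) RNA was selected with oligo-dT beads and sequenced as paired-end reads of 150 bases. Per the submitters' processing notes, the tools were FastQC 0.11.9, HISAT2 2.2.1, HTSeq 2.0.2 and DESeq2 1.38.3 with the build GRCm39; the annotation release and strand setting are not given in the sources used here. Reads shared by overlapping genes may therefore be lost or misassigned.

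Symbols were paired with 52029 of 57010 IDs. X (2414), Y (1547) and mitochondrial (37) IDs of GENCODE M21 had 0 counts in all libraries, so library totals cover the autosomes and IDs without a match. One count was worth 0.0401 to 0.0649 CPM of the TMM-scaled total, which sets the precision of low genes.

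All 12 libraries were fitted together in edgeR 4.0.16 (R 4.3.3; limma 3.58.1) with TMM scaling, the default filter by group (14253 genes), 1 mean per group, leaving 9 residual degrees of freedom. Tests were 2-sided with Benjamini-Hochberg adjustment over all genes tested, and the SE is the log2 fold change divided by the square root of F. The procedure was also run on simulated counts in which few genes changed, and only in WT. That run does not check it where most genes differ, as here. Lengths came from GENCODE M21 (98.8% of tested genes). The 20 other settings were RLE, upper-quartile and total-count scaling, no filter, a filter on a mean of 1 CPM, fits of the 8 libraries compared, DESeq2 1.42.0, a length offset (loess, span 0.5), and leaving out each library; 1 was added after seeing the data. Levels per kilobase were also computed over the union of a gene's exons.

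The 9 genes, the pathway list, the marker lists and the rules were chosen with earlier results of these data known. Pathway genes named in the text are the 2 called genes per role and comparison with Control with the largest change and a mean of at least 1 CPM, and always Igf2, Insr, Irs1, Irs2, Pappa, Stc2, Ghr and Socs2; 1 gene that this rule takes is not reported here. Similar profiles were sought among genes averaging 5 CPM or more, using log2 CPM (prior count 2). Motifs were searched in RefSeq GRCm38.p6 windows; other gene coordinates are not given because the builds differ.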

Additional observations from a re-analysis of the deposited data

Results flagged for a closer look

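In 111 sets of 4 libraries, the levels of the named genes in each group, 5 held a library whose gap to its nearest neighbour exceeded Dixon's 95% limit for 4 values, as a share of the group's range. Chance alone gives about 5.55. SIRT5F101L replicate 1 was the library concerned in 4 of the 5. Igfbp4 was at 576.7 CPM there, and at 486 to 499.3 CPM in the other SIRT5F101L libraries. Igfbp7 was at 2140 CPM there and at 1710 to 1774 CPM in the others. Adam12 was at 39.15 CPM there and at 57.58 to 59.63 CPM in the others, and Pappa at 33.44 CPM and at 50.23 to 52.77 CPM in the others. The fifth was Socs3 in WT replicate 2, at 113.9 CPM, beside 103.7 to 104.7 CPM in the other WT libraries.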

How the results depend on the processing

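Against Control, all 189 alternative values of the 9 genes in WT and 188 of 189 in SIRT5F101L kept their direction and call; the exception was Igfbp4 with total-count scaling. For the pathway, turns of direction were sought only among the genes picked for naming, and not over the whole list. The gene that turned among them was Insr, not called with all libraries and TMM scaling. With the length offset Insr was at -0.053 in WT and -0.0895 in SIRT5F101L, and with SIRT5F101L replicate 1 also left out at -0.0503 and -0.0884.

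Between SIRT5F101L and WT, leaving out 1 library gave 0 to 4 called genes of the 9, 0 to 19 pathway genes called higher and 0 to 5 called lower, the highest each time without SIRT5F101L replicate 1. The pathway gene called higher was Mmp3, 1 gene, with no filter, with DESeq2, and with the length offset, with or without that library; with the offset and without that library, 3 were called lower (Ddit4, Eif4ebp1 and Hras). Over all genes, 6 calls became 354 with no filter, 44 with DESeq2, 19 with the length offset, 2212 without SIRT5F101L replicate 1, 1206 with both, and 0 without several other libraries; the cause was not tested.

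Log2 fold changes of the 9 genes that turned sign were not called on either side. Igf1r was at -0.00099 with the length offset and -0.011 when SIRT5F101L replicate 1 was also left out, Igf2r at -0.11 and -0.15, and Igfbp5 at -0.00395 and -0.0175. With both changes, Igfbp3 was at -0.0012 and Igfbp4 at -0.029. Igf2r was at -0.0017 with no filter. Leaving out 1 library gave -0.038 to 0.032 for Igf2r, -0.0398 to 0.0405 for Igfbp3 and -0.0015 to 0.086 for Igfbp4.

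Depth limits Sirt5, Igfals, Lrp2 and Pappa2, whose values rest on few counts. Libraries without labelled cultures, an unstated Control treatment and a length trend that differs between libraries limit every comparison.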
